A study of Homo sapiens with 12 samples.

Results

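The integrated stress response and serine synthesis were followed through 38 genes, found by gene name among the 62703 genes of the count table of HCT116 cells, a human colorectal cancer line. The members are ATF4 and its partner transcription factors, feedback and stress effectors, amino acid transporters, enzymes of serine, proline, asparagine and one-carbon metabolism, and the kinases and phosphatase subunits that act on eIF2. Of these, 35 had enough reads to be tested, while NUPR1 (20 counts in all libraries together), VLDLR (1 count) and CBS (1 count) did not. The cells had been transfected for 48 h with hnRNP U siRNA (siU) or with a control siRNA (siCtr), and no other agent or allele separated the groups. Each siRNA gave 3 libraries of heavy polysomal (HP) RNA, the mRNA carried by many ribosomes in a sucrose gradient, and 3 of total RNA, 12 libraries in all. A single cell line was used, and the sources used here do not say which hnRNP U siRNA sequence went into these libraries.

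In the integrated stress response, kinases sensing ER stress, amino acid shortage, heme shortage or mitochondrial trouble phosphorylate the initiation factor eIF2, which lowers translation of most mRNAs and raises that of a few whose 5′ UTRs hold upstream reading frames. The best known of these few encodes ATF4, a transcription factor that switches on genes for amino acid uptake, tRNA charging and amino acid synthesis, among them the pathway that makes serine from a glycolytic intermediate and feeds its carbon into the folate cycle. Serine made this way supplies glycine and carbon units for nucleotide synthesis, on which proliferating cancer cells often rely. ATF4-bound promoters often carry the C/EBP-ATF response element, whose core is TGATGNAA.

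That element was sought on both strands of the RefSeq promoters (GRCh38.p14, 250 bases before to 50 after the first start listed for the gene). The table held 31 of the 38 members, and 7 of those promoters, or 22.6%, had a match, against 1.6% of the 11182 promoters of tested genes and 3.67% of all 27305 promoters. Many members were listed as genes of the ATF4 pathway, so the higher share among them is not independent of the list. The matches are printed below in windows of 30 bases because several members have one. The element is in capitals, and each window is read 5′ to 3′ on the strand that carries it.
ASNS: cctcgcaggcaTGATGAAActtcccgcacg
CHAC1: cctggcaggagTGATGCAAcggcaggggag
SLC3A2: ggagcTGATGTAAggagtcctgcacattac
SLC7A1: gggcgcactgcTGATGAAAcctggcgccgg
MTHFD1L: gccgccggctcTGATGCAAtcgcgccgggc
ATF3: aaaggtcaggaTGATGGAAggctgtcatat
PPP1R15B: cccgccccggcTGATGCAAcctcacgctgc
The windows lie at chr7:97872458-97872487 for ASNS (gene on the minus strand), chr15:40953251-40953280 for CHAC1 (plus) and chr11:62881719-62881748 for SLC3A2 (plus). The others lie at chr13:29595663-29595692 for SLC7A1 (minus), chr6:150866346-150866375 for MTHFD1L (plus), chr1:212565205-212565234 for ATF3 (plus) and chr1:204412026-204412055 for PPP1R15B (minus). In CHAC1 and SLC3A2 the match is on the strand opposite to the gene. A match in this window is a description of the letters and does not show that a factor binds there. The genes so marked did not move together, since CHAC1, SLC3A2, SLC7A1, MTHFD1L and ATF3 were higher after silencing in both kinds of RNA, PPP1R15B was lower in both and ASNS was lower in HP RNA, as described below.

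Silencing was seen in every library. HNRNPU mRNA had 82.4, 75.2 and 77.1 CPM (TMM-scaled counts relative to library size) in HP RNA of siU cells, against 1022, 1145 and 1074 CPM in siCtr cells, and 168, 149 and 160.4 CPM in total RNA of siU cells, against 992, 1106 and 986 CPM in siCtr cells. The epithelial markers EPCAM, CDH1, KRT8, KRT18, KRT19 and CLDN4 were present in all libraries, while CEACAM5 was at 0. Of 10 markers of other cell types, 7 had too few reads to be tested, and of the remaining 3, COL1A1 was lower, DES was higher and VIM did not pass the test. COL1A1 had 9.98 ± 0.497 CPM in total RNA of siU cells and 16.7 ± 0.649 CPM in siCtr cells, and DES had 2.46 ± 0.263 CPM in siU cells and 1.49 ± 0.303 CPM in siCtr cells (SD, n = 3 each); their part in the results was not tested. Library totals ran from 30305012 to 39761103 counts. In bulk RNA, fewer cells with an mRNA and less of it per cell cannot be told apart, and CPM values are shares of a library, not amounts.

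The control libraries of replicate 1 stood apart for these genes. Among the 35 members tested, the replicate 1 control was the highest of the 3 controls for 30 in HP RNA (85.7%) and for 27 in total RNA (77.1%), while over all genes tested it was highest for 31.1% and 36.3%. Its members lay at a median of 0.24 above the mean of the other controls in HP RNA and 0.29 above it in total RNA, on the log2 scale. The siU libraries of replicate 1 stood apart as well, being the highest of 3 for 19 members in HP RNA (54.3%) and 22 in total RNA (62.9%), while over all genes tested they were highest for 31.9% and 35.4%. Values without the replicate 1 control, a comparison chosen after the data had been seen, are given beside the members it moved most. Those fits kept siU replicate 1, which also stood apart, so the groups compared were unequal in size.

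The members were mostly higher after hnRNP U silencing. In HP RNA 23 of 35 passed the test as higher (edgeR's quasi-likelihood test, Benjamini-Hochberg adjusted p under 0.05) and 2 as lower, where 25.5% of the 15920 genes tested were called higher and 26.3% lower. In total RNA 27 members were higher and 1 was lower, where 28% of all genes were called higher and 29.3% lower. The members' median log2 fold change was 0.33 for HP RNA, where all genes tested had 0.0067, and 0.34 for total RNA, where they had 0.0005. Without the replicate 1 control HP RNA had 27 members higher and 1 lower (median 0.46) and total RNA had 30 higher and 1 lower (median 0.45). At least 2-fold higher were 5 of the 35 in HP RNA, GDF15, DDIT3, DDIT4, SLC3A2 and SLC7A5, where 5.15% of all genes were. In total RNA 3 were, GDF15, SLC7A5 and DDIT4, where 4.04% of all genes were. Without the replicate 1 control 6 members were at least 2-fold higher in each kind of RNA. They were CHAC1 and the 5 named for HP RNA. The shares over all genes in the fits without the replicate 1 control are not given here, so those counts have no background beside them.

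**Figure D1:**
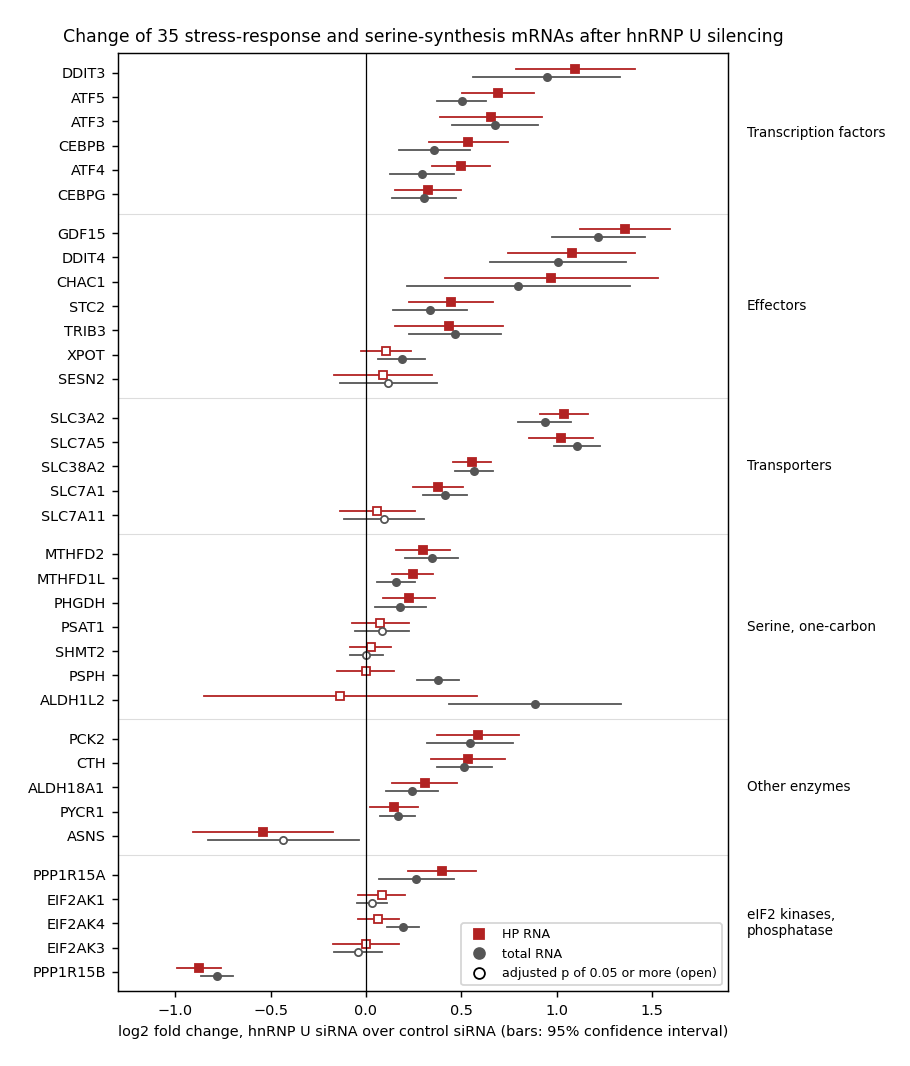
Log2 fold change of the 35 tested members, hnRNP U siRNA over control siRNA, in HP RNA (squares) and total RNA (circles), grouped by role, with 95% confidence intervals from the edgeR fits on 3 libraries a group. Filled symbols passed an adjusted p of 0.05. GDF15, DDIT3, DDIT4, SLC3A2 and SLC7A5 lie farthest to the right, and PPP1R15B lies alone far to the left with ASNS between it and 0.

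All 6 transcription factors that were tested were higher in both kinds of RNA. ATF4, the central factor, had 199, 191 and 191 CPM in HP RNA of siU cells, against 154, 124 and 124 CPM in siCtr cells. In total RNA it had 464, 436 and 409 CPM in siU cells, against 423, 328 and 314 CPM in siCtr cells. In HP RNA every siU library was above every control, while in total RNA the replicate 1 control lay between the siU libraries. The log2 fold change of ATF4 was 0.50 (SE 0.07, edgeR adjusted p = 1.44e-05) in HP RNA and 0.29 (SE 0.08, edgeR adjusted p = 0.0051) in total RNA. Without the replicate 1 control it was 0.61 in HP RNA and 0.44 in total RNA. DDIT3 encodes CHOP, the factor linked to cell death under prolonged stress, and it had the largest change of the group. Its HP RNA level was 9.13, 8.35 and 7.41 CPM in siU cells, against 4.9, 2.92 and 3.59 CPM in siCtr cells, and its total RNA level was 20.4, 20.0 and 17.1 CPM in siU cells, against 15.3, 7.67 and 7.04 CPM in siCtr cells. The groups did not overlap in either kind of RNA, although the replicate 1 control in total RNA stood at about the level of the lowest siU library. This gave log2 fold changes of 1.10 (SE 0.15, edgeR adjusted p = 7.68e-06) in HP RNA and 0.95 (SE 0.18, edgeR adjusted p = 0.000312) in total RNA, or 1.31 and 1.38 without the replicate 1 control. DDIT3 shares 355 bases of its exons with MARS1 on the other strand, and the strand setting of the counts is not given in the sources used here, so its level is uncertain.

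ATF5, a factor that is itself translated through upstream frames, had 34.3, 39.0 and 32.6 CPM in HP RNA of siU cells, against 21.5, 24.0 and 18.6 CPM in siCtr cells. In total RNA its levels were 50.5, 44.9 and 43.5 CPM in siU cells, against 33.5, 34.3 and 30.2 CPM in siCtr cells. Unlike for ATF4, its replicate 1 control was not the highest control in either kind of RNA, and no library of siU cells overlapped a control. The log2 fold changes of ATF5 were 0.69 (SE 0.09, edgeR adjusted p = 4.72e-06) in HP RNA and 0.50 (SE 0.06, edgeR adjusted p = 2.72e-06) in total RNA, with the reservation that its exons overlap NUP62 on the other strand. ATF3, a stress-induced factor downstream of ATF4, had 33.9, 32.3 and 28.2 CPM in HP RNA of siU cells, against 25.7, 16.3 and 16.8 CPM in siCtr cells. In total RNA ATF3 had 22.7, 20.1 and 21.1 CPM in siU cells, against 16.7, 10.9 and 12.3 CPM in siCtr cells. Every siU library of ATF3 was above every control, and its log2 fold changes were 0.65 (SE 0.13, edgeR adjusted p = 0.000324) and 0.68 (SE 0.11, edgeR adjusted p = 4.56e-05) in HP RNA and total RNA. CEBPB, a dimer partner of ATF4, had 199.5, 206 and 191 CPM in HP RNA of siU cells, against 165, 110.4 and 126 CPM in siCtr cells. In total RNA CEBPB had 112, 106 and 97.0 CPM in siU cells, against 99.8, 71.4 and 74.4 CPM in siCtr cells, where the replicate 1 control exceeded the lowest siU library. Its log2 fold changes were 0.54 in HP RNA and 0.36 in total RNA (edgeR adjusted p = 0.00017 and 0.00255). CEBPG, another partner, changed by 0.33 in HP RNA and 0.31 in total RNA. Leaving out the replicate 1 control gave 0.72 and 0.52 for CEBPB and 0.46 and 0.46 for CEBPG. When DESeq2 took the place of edgeR, ATF4, CEBPB and CEBPG did not pass in total RNA (adjusted p = 0.0791, 0.059 and 0.065), while all 6 factors passed in HP RNA.

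Among the effectors, 5 of 7 were higher in HP RNA and 6 of 7 in total RNA. GDF15, a secreted stress hormone of the TGF-beta family, had the largest increase of all members. Its HP RNA level was 801, 876 and 832 CPM in siU cells, against 412, 268 and 274 CPM in siCtr cells, and its total RNA level was 443, 436 and 414 CPM in siU cells, against 242, 166 and 147 CPM in siCtr cells. Every siU library exceeded every control by a wide gap, and the fold change was 2.56 in HP RNA and 2.33 in total RNA (log2 1.36, SE 0.11, and 1.22, SE 0.12; edgeR adjusted p = 1.86e-08 and 1.57e-07). The log2 values of GDF15 without the replicate 1 control were 1.59 and 1.46. DDIT4 encodes REDD1, which restrains mTORC1. It had 358, 373 and 278 CPM in HP RNA of siU cells, against 215, 142 and 109 CPM in siCtr cells, and 215, 215 and 176 CPM in total RNA of siU cells, against 144, 91.6 and 66.2 CPM in siCtr cells. The groups were apart in both kinds of RNA, and the log2 fold changes of DDIT4 were 1.08 (SE 0.16, edgeR adjusted p = 1.88e-05) and 1.01 (SE 0.17, edgeR adjusted p = 7.9e-05), or 1.39 and 1.36 without that control. CHAC1, an enzyme that breaks down glutathione, is the member that depended most on the replicate 1 control. Its HP RNA level was 57.7, 56.4 and 46.1 CPM in siU cells, against 47.5, 19.5 and 13.5 CPM in siCtr cells, and its total RNA level was 35.8, 35.3 and 29.6 CPM in siU cells, against 35.5, 12.9 and 9.93 CPM in siCtr cells. Taken replicate by replicate, the log2 ratio of siU to siCtr for CHAC1 was 0.28, 1.53 and 1.77 in HP RNA and 0.01, 1.45 and 1.57 in total RNA, so the first replicate showed little difference and the others a large one.

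The log2 fold changes of CHAC1 were 0.97 (SE 0.27, edgeR adjusted p = 0.00519) in HP RNA and 0.80 (SE 0.28, edgeR adjusted p = 0.0205) in total RNA. Without the replicate 1 control CHAC1 stood at 1.67 in HP RNA and 1.56 in total RNA. Without the replicate 3 control it stood at 0.63 in HP RNA (adjusted p = 0.0409), and in total RNA the call was lost without siU replicate 1, siCtr replicate 2 or siCtr replicate 3 (edgeR adjusted p = 0.0524, 0.0812 and 0.124). DESeq2 called CHAC1 in neither (adjusted p = 0.146 and 0.243). TRIB3, a pseudokinase that dampens the response, had 175, 164 and 153 CPM in HP RNA of siU cells, against 162, 94.5 and 98.4 CPM in siCtr cells. In total RNA TRIB3 had 146, 145 and 124 CPM in siU cells, against 129.8, 83.3 and 86.4 CPM in siCtr cells. Again the replicate 1 control reached the siU libraries while the other controls lay well below them. The log2 fold changes of TRIB3 were 0.44 (SE 0.13, edgeR adjusted p = 0.0117) and 0.47 (SE 0.11, edgeR adjusted p = 0.00231) in HP RNA and total RNA. Without siCtr replicate 1 it stood at 0.73 in HP RNA and 0.70 in total RNA, and in HP RNA it was not called without siCtr replicate 2 or 3 (edgeR adjusted p = 0.0701 and 0.11). STC2, a secreted glycoprotein, changed by 0.45 in HP RNA and 0.34 in total RNA (0.64 and 0.50 without siCtr replicate 1), and DESeq2 called neither STC2 nor TRIB3 in either kind of RNA. XPOT, the nuclear exporter of tRNAs, passed in total RNA and not in HP RNA (0.19, edgeR adjusted p = 0.0108, or 0.0869 without siCtr replicate 3; with a replicate block it passed in HP RNA too, edgeR adjusted p = 0.0282), and SESN2, a leucine sensor upstream of mTORC1, had log2 differences of 0.09 and 0.12 that did not pass. Without the replicate 1 control SESN2 passed in both kinds of RNA and XPOT also in HP RNA.

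**Figure D2:**
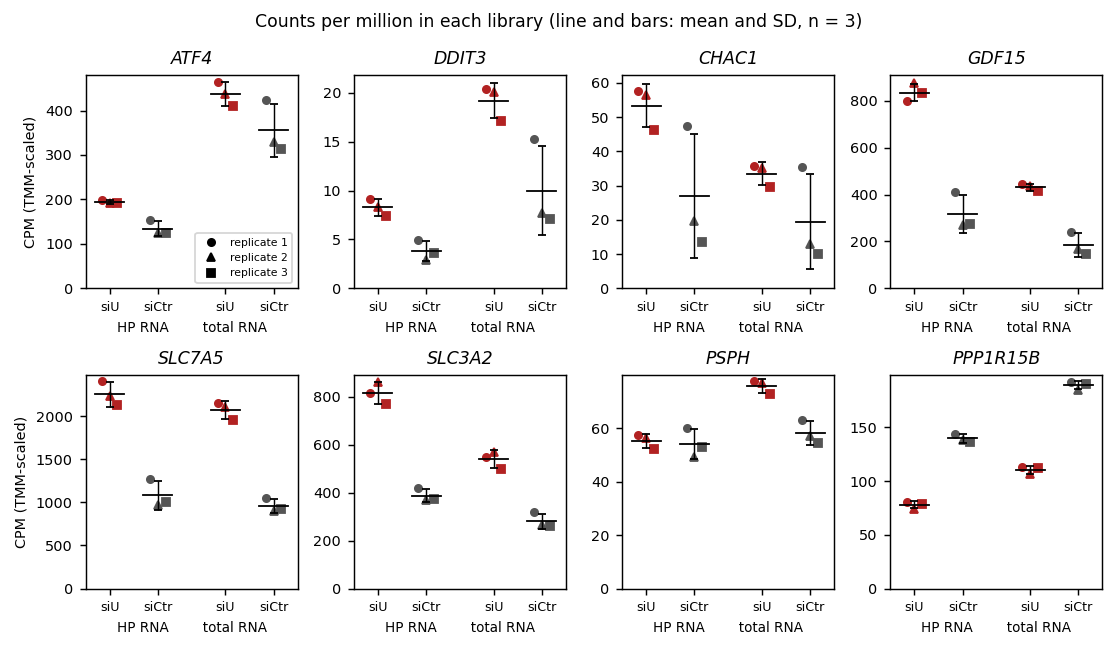
CPM (TMM-scaled, linear axes from 0) of 8 members in each library, HP RNA in the left pair and total RNA in the right pair of each panel, siU left of siCtr. Each point is a library, its shape the replicate number, and lines with bars are the mean and SD of 3. In CHAC1 the replicate 1 control (circle) stands at 47.5 CPM in HP RNA and 35.5 CPM in total RNA, far above the other controls, and in PPP1R15B all siU libraries lie below all controls.

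Of the 5 amino acid transporters, 4 were higher in both kinds of RNA, and none of these calls was lost with DESeq2, under the other settings run or when any library was left out. SLC7A5, the light chain of the large neutral amino acid transporter that imports leucine, had 2402, 2228 and 2123 CPM in HP RNA of siU cells, against 1271, 973 and 999 CPM in siCtr cells. In total RNA SLC7A5 had 2150.0, 2104 and 1959 CPM in siU cells, against 1053, 897 and 923 CPM in siCtr cells. Both groups were tight and far apart, with 2.03-fold more in HP RNA and 2.16-fold more in total RNA (log2 1.02 and 1.11, SE 0.08 and 0.06, edgeR adjusted p = 9.62e-09 and 1.18e-10). SLC3A2, the heavy chain with which SLC7A5 and SLC7A11 assemble, had 814, 859.8 and 768 CPM in HP RNA of siU cells, against 418, 368 and 374 CPM in siCtr cells. In total RNA SLC3A2 had 549, 569 and 498 CPM in siU cells, against 317, 265 and 259 CPM in siCtr cells. Its log2 fold changes were 1.04 (SE 0.06, edgeR adjusted p = 1.85e-10) and 0.94 (SE 0.07, edgeR adjusted p = 4.48e-09), close in size to those of its partner SLC7A5. SLC38A2, a sodium-coupled neutral amino acid transporter, had 976, 954 and 928 CPM in HP RNA of siU cells, against 638, 635 and 622 CPM in siCtr cells, and 1249, 1186 and 1136 CPM in total RNA of siU cells, against 846, 779 and 778 CPM in siCtr cells. SLC7A1, which imports arginine and lysine, had 252, 247 and 236 CPM in HP RNA of siU cells, against 204, 169 and 179.6 CPM in siCtr cells, and 288, 288 and 271 CPM in total RNA of siU cells, against 233, 204 and 196 CPM in siCtr cells. The groups of both genes were apart in both kinds of RNA, with log2 fold changes in HP RNA of 0.56 for SLC38A2 and 0.38 for SLC7A1 (edgeR adjusted p = 2.87e-08 and 7.72e-05) and in total RNA of 0.57 and 0.41 (edgeR adjusted p = 3.44e-08 and 5.67e-06). SLC7A11, the cystine importer, did not pass. It had 133, 126 and 118 CPM in HP RNA of siU cells, against 140.5, 96.8 and 116 CPM in siCtr cells, a log2 difference of 0.06 with a 95% interval of −0.13 to 0.25. Without the replicate 1 control SLC7A11 was called higher in both kinds of RNA.

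The enzymes of serine and one-carbon metabolism changed less, with 3 of 7 higher in HP RNA and 5 of 7 in total RNA. PHGDH, which commits a glycolytic intermediate to serine synthesis, had 396, 435 and 410.2 CPM in HP RNA of siU cells, against 383, 316 and 338 CPM in siCtr cells. In total RNA PHGDH had 217, 235 and 218 CPM in siU cells, against 223, 185 and 181 CPM in siCtr cells, so the replicate 1 control was above siU replicates 1 and 3. The log2 fold changes of PHGDH were 0.22 (SE 0.06, edgeR adjusted p = 0.00726) in HP RNA and 0.18 (SE 0.06, edgeR adjusted p = 0.0208) in total RNA. In total RNA PHGDH stood at 0.28 without siCtr replicate 1 and lost its call without siU replicate 2, siCtr replicate 2 or siCtr replicate 3 (edgeR adjusted p = 0.0993, 0.0762 and 0.138). PSAT1, the aminotransferase of the pathway's middle step, had 743, 798 and 684 CPM in HP RNA of siU cells, against 774, 649.6 and 636 CPM in siCtr cells, and 444, 456 and 404 CPM in total RNA of siU cells, against 465, 392 and 369 CPM in siCtr cells. The groups overlapped, and its log2 differences of 0.08 (95% interval −0.07 to 0.22) in HP RNA and 0.09 (−0.06 to 0.23) in total RNA did not pass, although PSAT1 was called higher in both without the replicate 1 control. PSPH, the phosphatase that releases serine, was called higher in total RNA and not in HP RNA. The change of PSPH in HP RNA relative to total RNA did not pass without a block (edgeR adjusted p = 0.278). It passed with a block, as described below for the HP/total ratio. The HP RNA level of PSPH was 57.3, 56.4 and 52.3 CPM in siU cells, against 60.2, 49.3 and 52.9 CPM in siCtr cells, and its total RNA level was 77.8, 76.8 and 72.7 CPM in siU cells, against 63.1, 57.2 and 54.5 CPM in siCtr cells. All siU libraries of PSPH were above all controls in total RNA (log2 0.38, SE 0.05, edgeR adjusted p = 1.04e-05), and the groups lay over each other in HP RNA (log2 −0.0025, 95% interval −0.15 to 0.15). PSPH has a near-identical copy, PSPHP1, with which reads may have been shared.

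In the mitochondrial folate cycle, MTHFD2, the dehydrogenase and cyclohydrolase, had 915, 893 and 816 CPM in HP RNA of siU cells, against 779, 646 and 656 CPM in siCtr cells. In total RNA MTHFD2 had 669, 646 and 609.7 CPM in siU cells, against 577, 461 and 473 CPM in siCtr cells. The groups did not overlap, and the log2 fold changes were 0.30 (SE 0.07, edgeR adjusted p = 0.00113) and 0.34 (SE 0.07, edgeR adjusted p = 0.00029), or 0.39 and 0.45 without the replicate 1 control. MTHFD1L, which releases formate from mitochondria, had 211, 216 and 198 CPM in HP RNA of siU cells, against 174, 174 and 168 CPM in siCtr cells, and 168, 180.2 and 160.1 CPM in total RNA of siU cells, against 153, 157 and 144 CPM in siCtr cells. Its changes, by log2 0.24 in HP RNA and 0.16 in total RNA, passed (edgeR adjusted p = 0.000738 and 0.00873), the call in total RNA being lost without siU replicate 2 or siCtr replicate 3 (edgeR adjusted p = 0.0755 and 0.0649). SHMT2, which splits serine into glycine and a folate-bound carbon, was at 365 ± 17.6 CPM in HP RNA of siU cells and 350.4 ± 2.23 CPM in siCtr cells (SD, n = 3 each), and its difference in total RNA had a 95% interval of −0.08 to 0.09 on the log2 scale. ALDH1L2, the mitochondrial formyl-tetrahydrofolate dehydrogenase, was scarce. It had 0.539, 0.431 and 0.663 CPM in HP RNA of siU cells, against 0.534, 0.334 and 0.852 CPM in siCtr cells, and 1.9, 1.71 and 2.31 CPM in total RNA of siU cells, against 1.2, 0.715 and 1.24 CPM in siCtr cells. These are 55 counts in the 3 siU libraries of HP RNA, against 60 in the siCtr libraries, and 221 in the siU libraries of total RNA, against 110 in the siCtr libraries. Only the change in total RNA passed (log2 0.89, SE 0.21, edgeR adjusted p = 0.00194), and the exons of ALDH1L2 overlap WASHC4 and NOPCHAP1 on the other strand.

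Enzymes for other amino acids were mostly higher as well, with ASNS the exception. PCK2, the mitochondrial PEP carboxykinase, had 82.7, 97.2 and 90.8 CPM in HP RNA of siU cells, against 69.6, 46.1 and 60.4 CPM in siCtr cells, and 53.2, 62.9 and 54.3 CPM in total RNA of siU cells, against 48.3, 30.5 and 37.7 CPM in siCtr cells. The groups of PCK2 were apart in both, with log2 fold changes of 0.59 (SE 0.10, edgeR adjusted p = 0.000115) and 0.54 (SE 0.11, edgeR adjusted p = 0.000369). CTH, which forms cysteine at the end of transsulfuration, had 22.7, 26.0 and 24.1 CPM in HP RNA of siU cells, against 18.4, 14.2 and 16.5 CPM in siCtr cells, and 15.1, 15.4 and 15.2 CPM in total RNA of siU cells, against 11.1, 10.1 and 10.8 CPM in siCtr cells. It too had no overlap, with log2 fold changes of 0.53 and 0.52 (edgeR adjusted p = 9.52e-05 and 7.62e-06). CBS, the enzyme before it, had 1 count in the 12 libraries. CBS has an annotated duplicate copy, with which reads may have been shared, so this count does not show that its mRNA was absent. ALDH18A1, the first enzyme of proline synthesis, had 145, 165 and 159.7 CPM in HP RNA of siU cells, against 102, 133 and 135 CPM in siCtr cells, and 112, 125 and 126 CPM in total RNA of siU cells, against 90.1, 112 and 105 CPM in siCtr cells. Here the replicate 1 control was the lowest control. The log2 fold changes of ALDH18A1 were 0.31 and 0.24 (edgeR adjusted p = 0.00382 and 0.00452), or 0.19 and 0.16 without that control. PYCR1, the last enzyme of proline synthesis, changed by 0.15 in HP RNA and 0.17 in total RNA, and its call in HP RNA (edgeR adjusted p = 0.0464) was lost without siU replicate 1 or 3 or siCtr replicate 2 or 3, at adjusted p = 0.21, 0.0739, 0.219 and 0.156.

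ASNS, asparagine synthetase, had 1.38, 1.51 and 1.64 CPM in HP RNA of siU cells, against 2.4, 2.04 and 2.04 CPM in siCtr cells. In total RNA ASNS had 1.82, 2.68 and 2.04 CPM in siU cells, against 3.68, 2.98 and 2.25 CPM in siCtr cells. The groups were apart in HP RNA and overlapped in total RNA. The log2 fold changes of ASNS were −0.54 (SE 0.17, edgeR adjusted p = 0.0147) in HP RNA and −0.43 (SE 0.19, edgeR adjusted p = 0.0582, or 0.0411 with a replicate block) in total RNA, and the call in HP RNA was lost without siU replicate 1 or siCtr replicate 1 (edgeR adjusted p = 0.0592 and 0.0582). These values are uncertain because 2415 of the 4896 exon bases of ASNS are shared with a non-coding gene on the same strand (ENSG00000284707), and only 919 counts were assigned to ASNS in all 12 libraries.

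Among the regulators of eIF2 phosphorylation, both subunits that guide the eIF2 phosphatase changed, in opposite directions. PPP1R15B, the constitutive subunit that directs protein phosphatase 1 to eIF2, had the largest decrease of all members. It had 80.5, 74.2 and 78.8 CPM in HP RNA of siU cells, against 144, 139 and 136 CPM in siCtr cells, and 113, 106 and 112 CPM in total RNA of siU cells, against 192, 185 and 190.5 CPM in siCtr cells. Every siU library was far below every control, and the log2 fold changes of PPP1R15B were −0.88 (SE 0.06, edgeR adjusted p = 6.93e-10) and −0.78 (SE 0.04, edgeR adjusted p = 1.44e-10). PPP1R15A encodes GADD34, the stress-induced subunit of the same phosphatase, and it was higher. Its HP RNA level was 23.0, 21.6 and 19.7 CPM in siU cells, against 17.3, 15.4 and 15.1 CPM in siCtr cells, and its total RNA level was 36.6, 32.9 and 31.8 CPM in siU cells, against 34.1, 24.1 and 26.0 CPM in siCtr cells. The groups of PPP1R15A were apart in HP RNA (log2 0.40, SE 0.08, edgeR adjusted p = 0.000673). In total RNA they overlapped through the replicate 1 control (log2 0.26, edgeR adjusted p = 0.0219, or 0.42 without that control), and the call was lost without siU replicate 1, siCtr replicate 2 or siCtr replicate 3 (edgeR adjusted p = 0.0934, 0.109 and 0.112) and with DESeq2 (adjusted p = 0.171). EIF2AK4, the GCN2 kinase that senses uncharged tRNA, had 141, 140.2 and 139 CPM in total RNA of siU cells, against 122, 125 and 118 CPM in siCtr cells (log2 0.19, SE 0.04, edgeR adjusted p = 0.000465), and did not pass in HP RNA, where it had 136, 129 and 131 CPM in siU cells, against 126, 124 and 120.1 CPM in siCtr cells. EIF2AK3, the PERK kinase of the ER, and EIF2AK1, the HRI kinase that senses heme shortage and mitochondrial stress, did not pass in either kind of RNA, with 95% intervals in total RNA of −0.17 to 0.08 for EIF2AK3 and −0.05 to 0.11 for EIF2AK1.

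The siRNAs listed in the study can match mRNAs through their seeds, and PPP1R15B carries a match to each of the hnRNP U siRNAs 1 and 2 in the 3′ UTR of its canonical transcript (ENST00000367188, chromosome 1). They are shown because PPP1R15B was the member with the largest decrease, in windows of 30 bases with the match in capitals.
PPP1R15B, siRNA 1 match at base 519: aataaccttgtGTATGCTaccaacttaaag
PPP1R15B, siRNA 2 match at base 761: tgtgtacgttaTTGTAGTtcccagtttaat
Bases are counted from the start of the 3′ UTR. Matches to siRNA 1 were found in 2 of the 35 tested members and in 7.29% of coding genes, and matches to siRNA 2 in 2 members and in 13.1% of coding genes. SLC7A11 holds 2 matches to siRNA 1 and was not called in either kind of RNA, and SLC38A2 holds a match to siRNA 2 and was higher in both. Over all coding genes tested, the median log2 fold change was −0.30 in HP RNA and −0.27 in total RNA for those with a siRNA 1 match, and −0.10 and −0.085 for those with a siRNA 2 match, beside −0.026 and −0.028 for all coding genes. The part of such matches in the change of PPP1R15B was not tested.

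Apart from the members, 18 genes of eIF2 itself and its regulators were all measured, and the test called 7 higher and 4 lower in HP RNA (median log2 fold change 0.088) and 9 higher and 5 lower in total RNA (median 0.11). IMPACT, which holds back GCN2, was lower in HP RNA (−0.85) and total RNA (−0.81), as were PPP1CB, a catalytic subunit of protein phosphatase 1 (−0.44 and −0.53), and OMA1, the mitochondrial protease that relays stress to HRI (−0.42 and −0.48). Of 16 tested among 19 further genes that respond to ATF4, 7 passed as higher and 5 as lower in HP RNA (median 0.11) and 8 as higher and 6 as lower in total RNA (median 0.14). SLC36A4 (−0.92 in HP RNA and −0.80 in total RNA) and SLC1A4 (−0.51 and −0.56), both amino acid transporters, were lower, while VEGFA, the angiogenic growth factor, was higher (0.53 and 0.33). In HP RNA the shares of both lists lie nearer than those of the members to the shares of all genes, which were 25.5% higher and 26.3% lower in HP RNA. For total RNA the shares of all genes were 28% higher and 29.3% lower. Members and lists were chosen with earlier results of these data known, so the difference between members and lists may come from that choice and was not tested.

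In the HP/total ratio, the change in HP RNA relative to that in total RNA, no member passed in the fit without a block, and ATF4 and PSPH passed with a block for the culture. The interaction of siRNA and kind of RNA called 0 of 35 members, where 0.163% of all genes were called, and DESeq2 also called 0. In edgeR 2 members had an unadjusted p under 0.05. These were PSPH, at −0.35 (95% interval −0.54 to −0.15, edgeR adjusted p = 0.278), and the scarce ALDH1L2, at −0.996 (−1.86 to −0.13, edgeR adjusted p = 0.624). The median of the members was 0.052, beside 0.036 over all genes tested. ATF4 stood at 0.24 (95% interval −0.03 to 0.50, edgeR adjusted p = 0.756), ATF5 at 0.22 (−0.03 to 0.47) and DDIT3 at 0.19 (−0.44 to 0.81), so each interval held 0 as well as gains. The sample titles give the HP and total libraries of 1 siRNA and replicate the same experiment code. With these pairs as a block, where 0.879% of all genes were called, ATF4 was called higher (0.23, edgeR adjusted p = 0.02) and PSPH lower (−0.35, edgeR adjusted p = 0.00402). The replicate number alone as a block called PSPH (edgeR adjusted p = 0.0188) and not ATF4, where 0.49% of all genes were called. Pair by pair, ATF4 had log2 HP over total values of −1.22, −1.19 and −1.10 in siU cells, against −1.46, −1.40 and −1.34 in siCtr cells. PSPH had −0.44, −0.45 and −0.47 in siU cells, against −0.07, −0.21 and −0.04 in siCtr cells. For both genes the groups of ratios did not overlap.

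The share of each mRNA in heavy polysomes differed widely between members. HP RNA was compared with total RNA within each siRNA, and the ratio is relative to the typical gene because no spike-in entries are in the count table. In siU cells 18 members had more and 15 less in HP RNA than in total RNA (34.4% and 33.7% of all genes), and in siCtr cells 15 had more and 13 less (33.1% and 32% of all genes). These fits did not pair the libraries that share an experiment code. With a replicate block 1 more member was called in siU cells and 5 more in siCtr cells. The counts of calls therefore do not show a difference between the siRNAs. ATF4 had the lowest ratio in siCtr cells, at −1.20 (SE 0.05) on the log2 scale in siU cells and −1.41 (SE 0.10) in siCtr cells. DDIT3 followed with −1.23 (SE 0.09) and −1.40 (SE 0.26). Of 12759 coding genes, 3% had a lower ratio than ATF4 in siU cells and 1.83% in siCtr cells, and 2.72% and 1.89% had a lower ratio than DDIT3. All 4 ratios passed (edgeR adjusted p = 3.62e-13 and 2.12e-08 for ATF4, 7.61e-10 and 0.000239 for DDIT3). ALDH1L2 came next in siCtr cells, at −1.87 in siU cells and −0.85 in siCtr cells, but on few counts, and its siCtr call was lost without total RNA replicate 1 or 3 or HP RNA replicate 1 or 2 (edgeR adjusted p = 0.071, 0.115, 0.0646 and 0.119). The highest ratios in siCtr cells were those of PHGDH (0.87 in siU cells and 0.81 in siCtr cells), GDF15 (0.93 and 0.78) and PSAT1 (0.75 and 0.75), all passing in both. PSPH, the last enzyme of the same short pathway, lay on the other side of 0, at −0.48 in siU cells (edgeR adjusted p = 1.22e-07) and −0.11 in siCtr cells (edgeR adjusted p = 0.223, or 0.0453 with a replicate block). The direction of a small ratio depends on the scaling, since with upper-quartile factors the median of all genes was −0.11 in siU cells and −0.11 in siCtr cells, where TMM gave −0.020 and −0.025. With those factors 4640 genes were higher and 6249 lower in siU cells, where TMM gave 5471 and 5369, and 4405 were higher and 5939 lower in siCtr cells, where TMM gave 5267 and 5101.

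**Figure D3:**
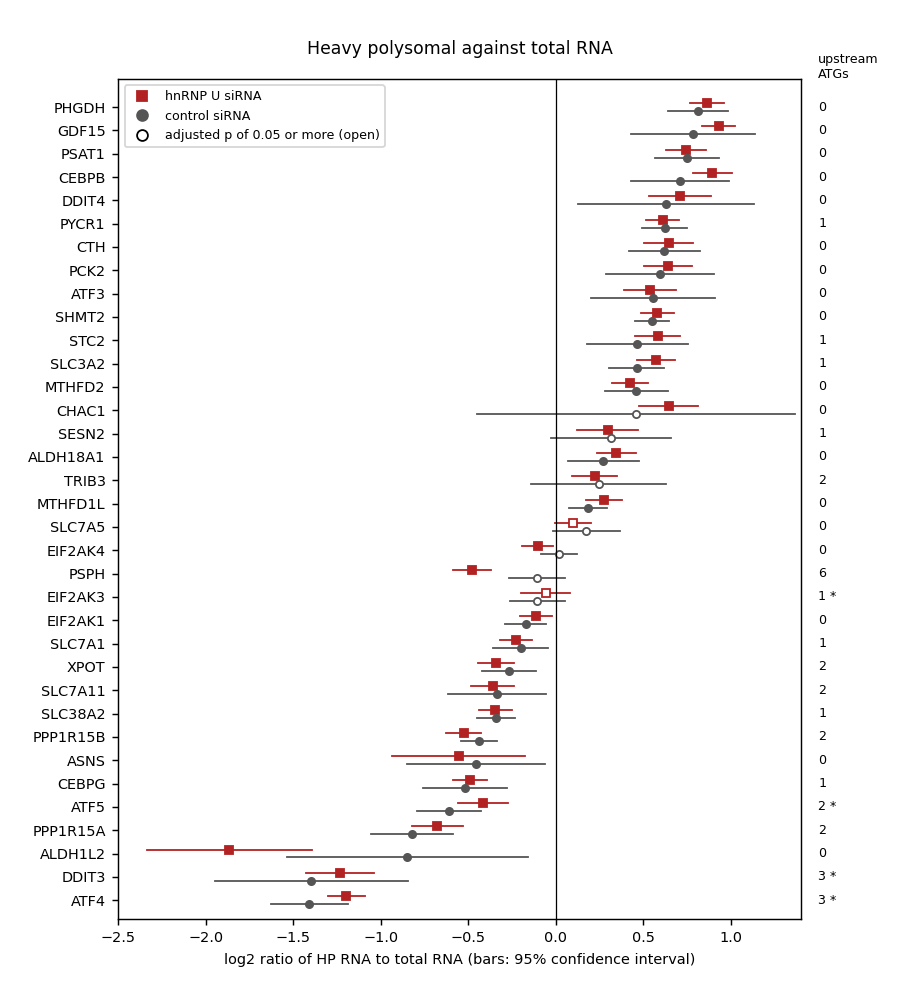
Log2 ratio of HP RNA to total RNA for the 35 tested members in siU cells (squares) and siCtr cells (circles), with 95% confidence intervals from the edgeR fits, ordered by the siCtr ratio. Filled symbols passed an adjusted p of 0.05, the numbers at the right count the ATGs in the 5′ UTR of the canonical transcript, and an asterisk marks an upstream frame that runs past the main start. ATF4 and DDIT3 lie at the low end near −1.40 in siCtr cells, and PHGDH lies at the high end near 0.81.

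The number of upstream starts depends on the transcript taken. In the canonical GENCODE transcripts 17 of the 35 members had at least 1 upstream ATG, and 21 did when the longest coding transcript was taken. In the canonical transcripts ATF4 and DDIT3 each had 3 upstream ATGs, ATF5 had 2, and ALDH1L2 and ASNS, also at the low end of the ratio, had 0. The ASNS ratio in siCtr cells (−0.45) rests on few counts and lost its call with DESeq2 (adjusted p = 0.0588). It was also lost without total RNA replicate 1 or 2 or HP RNA replicate 2 or 3 (edgeR adjusted p up to 0.225). In ATF4, DDIT3, ATF5 and EIF2AK3 an upstream frame overlapped the main start, as it did in 12.8% of coding genes. PPP1R15A and PPP1R15B had 2 closed upstream frames each, and PSPH had 6. PHGDH, GDF15 and PSAT1, at the high end, had 0. In the longest coding transcripts ATF4 had 7, DDIT3 4 with no frame overlapping the start, ATF5 2, ALDH1L2 13, PHGDH 10 and GDF15 8, while ASNS and PSAT1 had 0. The counts there set low and high members apart less clearly. Over all coding genes tested, the median log2 ratio in siCtr cells was 0.21 with 0 upstream ATGs (7482 genes), −0.012 with 1 (2470 genes), −0.12 with 2 to 3 (1754 genes) and −0.25 with 4 or more (1016 genes), and it was 0.22, −0.039, −0.14 and −0.25 in siU cells. With the longest transcripts the medians in siCtr cells were 0.20, 0.022, −0.055 and −0.093. ATF4, DDIT3 and ATF5, and PPP1R15A at −0.68 in siU cells and −0.82 in siCtr cells, lay well below the median of their canonical class. Other members with upstream ATGs lay above it in siCtr cells. They were PYCR1 (1 ATG, ratio 0.62), STC2 (1, 0.47), SLC3A2 (1, 0.46), SESN2 (1, 0.32) and TRIB3 (2, 0.245). The ratios of SESN2 and TRIB3 did not pass there without a block. EIF2AK3, with an overlapping frame, stood at −0.11. Coding length moved with the ratio too, with medians in siCtr cells of −0.19 for coding lengths under 600 bases, 0.25 from 600 to under 1200, 0.16 from 1200 to under 2400 and −0.099 above, and DDIT3 has 510 coding bases and ATF4 has 1056. The part of length and of upstream starts in the members' ratios was not tested.

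**Figure D4:**
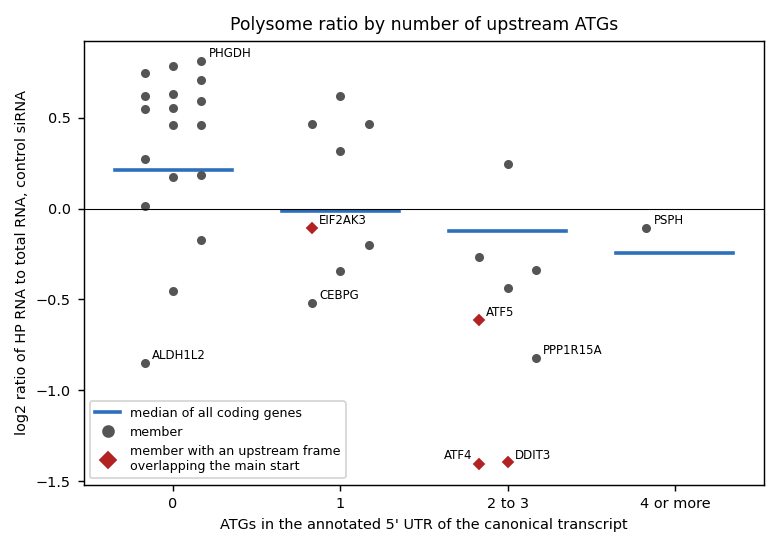
Log2 ratio of HP RNA to total RNA in siCtr cells for each tested member, by the number of ATGs in the 5′ UTR of its canonical transcript. Horizontal lines are the medians of all coding genes in the class (0.21, −0.012, −0.12 and −0.25 from left to right), and diamonds are members with an upstream frame overlapping the main start, of which ATF4 and DDIT3 lie lowest.

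Relative to the length of the canonical transcript, ATF4 was the most abundant tested member in total RNA of siCtr cells. Such rankings depend on the transcript taken, since the 5′ UTR of ATF4 has 282 bases in the canonical transcript and 882 in the longest coding one. Its level per length in total RNA was 308 ± 19.2 CPM per kb of transcript in siU cells and 250.2 ± 42.0 CPM per kb in siCtr cells (SD, n = 3 each), and in HP RNA it was 136 ± 3.05 CPM per kb and 94.3 ± 12.2 CPM per kb. Per length, SLC7A5 was the most abundant member in total RNA of siU cells, at 455 ± 21.8 CPM per kb, against 210.2 ± 18.3 CPM per kb in siCtr cells (SD, n = 3 each), and GDF15 was the most abundant in HP RNA of siU cells, at 697 ± 31.5 CPM per kb, against 265 ± 67.8 CPM per kb in siCtr cells. DDIT3, for all its change, stayed at 21.2 ± 1.98 CPM per kb in total RNA of siU cells and 11.1 ± 5.08 CPM per kb in siCtr cells, and ALDH1L2 was lowest of the tested members, at 0.266 ± 0.0413 and 0.141 ± 0.0392 CPM per kb. RNA G-quadruplex motifs, the feature by which the study linked hnRNP U to mRNAs, were found in any transcript of 13 of the 35 members, against 44.6% of coding genes.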

How the data were processed

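The authors trimmed reads with Trim Galore, aligned them to hg38 with STAR and deposited raw counts per gene of GENCODE release 43, with no normalization. Poly(A)+ RNA went into directional libraries. The STAR version and the strand setting are not given in the sources used here, and the submitters' notes name CASAVA 1.8. Names, coordinates and transcripts came from GENCODE 44, where 62639 of 62703 identifiers were found. The table has 0 ERCC entries.

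Genes were kept by filterByExpr (minimum count 10), which left 15920, and compared in R 4.3.3 by the quasi-likelihood F-test of edgeR 4.0.16 on TMM-scaled counts (adjusted by Benjamini-Hochberg across every gene tested, threshold 0.05), within HP RNA and total RNA on 6 libraries each, between HP and total RNA within each siRNA, and as their interaction over all 12 libraries. CPM in the text is scaled by TMM over all 12. The fits within HP RNA and within total RNA were run on simulated counts with known changes. Those counts held no shift of replicate 1 and no pairing of libraries, so how the fits behave under either was not tested. Replicates are the numbered libraries of the labels, and reads carried no molecular identifiers, so errors are those between libraries.

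Members and lists were chosen with earlier results of these data known, so no list was tested. Named in full were up to 4 called members of each role with the largest change, ATF4, DDIT3, PHGDH, PSAT1, PSPH, the 3 lowest and 3 highest HP to total ratios in siCtr cells, members called in the HP/total ratio, and up to 3 called genes of each other list. The lists were eIF2 and its regulators, other ATF4-responsive genes, other folate and one-carbon genes, ER stress genes of the ATF6 and IRE1 arms, epithelial markers (a further one is not reported here) and markers of other cell types. Other genes named were chosen after their values were seen. The alternatives were DESeq2 1.42.0, its size factors, upper-quartile factors, dropping the filter or raising its minimum to 50, fitting the 12 libraries together, a replicate block, each library left out, the longest transcript and, added after the data were seen, the replicate 1 control left out. An RNA G-quadruplex motif had 4 G runs, each 3 or longer, spaced by 1 to 7 bases.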

Additional observations from a re-analysis of the deposited data

Results flagged for a closer look

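The change of HNRNPU mRNA itself differed between HP RNA and total RNA. The interaction of siRNA and kind of RNA gave a log2 value of −1.09 (SE 0.08, edgeR adjusted p = 2.34e-07), since the mRNA fell by 3.82 in HP RNA and by 2.70 in total RNA. It was lower in 3 of 3 replicates in both kinds of RNA, and no other gene described here passed this test without a block and with the filter on low counts.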

How the results depend on the processing

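No called member changed direction under any alternative run. DESeq2 called fewer members, 21 in HP RNA and 21 in total RNA, and 31 and 23 for HP against total RNA in siU and siCtr cells. With it 4 members lost their call in HP RNA and 7 in total RNA, and 2 and 5 lost theirs for HP against total RNA. The 7 in total RNA were ATF4, CEBPB, CEBPG, CHAC1, TRIB3, PPP1R15A and STC2. In the HP/total ratio, where 26 of all genes were called, DESeq2 called 49, no filter 61, the replicate block 78 and a replicate block by culture 140. The members called there were 0, and became 1 with no filter (PSPH at −0.41, adjusted p = 0.00109), 1 with the replicate block (PSPH, adjusted p = 0.0188) and 2 with the block by culture (PSPH, adjusted p = 0.00402, and ATF4 at 0.23, adjusted p = 0.02). Pairing was gauged by correlating each library's deviations from its group mean, in log2 CPM over the genes tested, not the libraries themselves. For the same number, the deviations of siU and siCtr libraries correlated at −0.0038 to 0.056 in total RNA and 0.028 to 0.084 in HP RNA. Those of HP and total RNA correlated at 0.049 to 0.13 in siU cells and 0.096 to 0.13 in siCtr cells. In that order, 3, 6, 6 and 6 of 6 libraries correlated best with their own number. The titles give libraries of 1 number a shared experiment code. Under the replicate block no member lost a call, and 1 gained a call in HP RNA (XPOT), 1 in total RNA (ASNS), 1 in HP against total RNA of siU cells (SLC7A5) and 5 in siCtr cells (CHAC1, TRIB3, SESN2, SLC7A5 and PSPH).

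Leaving out each library in turn gave 7231 to 7803 genes called in HP RNA and 7934 to 8788 in total RNA, with 23 to 28 and 24 to 31 members. The HP/total ratio gave 17 to 37 genes and 0 to 0 members, and HP against total RNA gave 10077 to 10506 genes and 30 to 33 members in siU cells and 9397 to 10112 genes and 23 to 27 members in siCtr cells. With 3 libraries a group and a control that stood apart, members with small changes cannot be placed firmly on either side of the threshold, and depth limits ASNS and ALDH1L2. The causes of these differences were not tested.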

Other observations

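Outside the members, genes of the folate cycle and of neighbouring amino acid pathways moved both ways. Of 24 tested among 27 such genes, the test called 11 higher and 8 lower in HP RNA (median log2 fold change 0.11) and 12 higher and 9 lower in total RNA (median 0.17). All genes tested moved both ways too, with 25.5% higher and 26.3% lower in HP RNA and 28% and 29.3% in total RNA. SLC25A32, the carrier of folate into mitochondria, was higher (log2 0.61 in HP RNA and 0.88 in total RNA). GCSH, a carrier protein of the glycine cleavage system, was lower (−0.71 and −0.97), as was PRODH, which degrades proline (−1.64 and −0.93). These values are uncertain, since only 1499 counts were assigned to SLC25A32, 815 to GCSH and 227 to PRODH in all 12 libraries. Most exon bases of SLC25A32 and some of GCSH are shared with other genes on the same strand. The exons of SLC25A32 also overlap DCAF13 on the other strand.

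Of 15 genes of the other ER stress arms, those of ATF6 and IRE1, 7 passed as higher and 2 as lower in HP RNA (median 0.12) and 10 as higher and 1 as lower in total RNA (median 0.14). All genes tested had 25.5% higher and 26.3% lower in HP RNA and 28% and 29.3% in total RNA, and the members had 27 of 35 higher and 1 lower in total RNA. HSP90B1, an ER chaperone, was higher (0.45 in HP RNA and 0.33 in total RNA), and so was ATF6 itself (0.40 and 0.36). DNAJB9, a co-chaperone that holds back IRE1, was lower (−0.85 and −0.90). None of the 15 changed by 2-fold or more. Within the 4 pathway lists named here and in the text above, no gene passed the test of the HP/total ratio (edgeR, 0 called, smallest adjusted p = 0.339, and 2 genes at an unadjusted p under 0.05), and DESeq2 also called 0.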
